A study of Mus musculus with 6 samples.

Results

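Klrg1 and 4 genes listed with it were measured in regulatory T cells (Treg cells) of mice with a Treg-specific deletion of Tkt, the gene for the enzyme transketolase, and of control mice. The 5 members are Klrg1, Klrb1f, Klrb1c and Klrg2, which encode killer cell lectin-like receptors, and Gm6637, the predicted gene next to Klrg1. They were picked by symbol, with their difference between the groups already known, from the 18493 genes of the deposited table. All 5 lie on chromosome 6, and all 5 had enough reads to pass the filter on low counts, Klrg1 and Gm6637 through the wild-type libraries. Because the choice used the comparison of the groups, the values of the members are given as a description, with no p-value.

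The cKO group held 3 libraries from mice of genotype Foxp3cre/+ TKTfl/fl, in which Tkt is deleted where the Treg gene Foxp3 drives the Cre recombinase. The WT group held 3 libraries from Foxp3cre/+ mice, so the Cre was present in both groups. All mice were untreated female C57BL/6 animals aged 7 weeks, and the design text calls both groups chimeric. Foxp3 lies on the X chromosome, so a female with 1 Cre allele is a mosaic of cells, and sorting for the YFP reporter takes those in which the Cre allele is active. CD4+CD25+YFP+ cells were sorted from spleen and lymph node. Whether a library pools animals is not stated, so a p-value here reflects only how far these 6 libraries vary, which may in part be technical variation.

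Depth was even, at 17647866 to 18215168 estimated reads in the cKO libraries and 17180577 to 17715571 in the WT libraries. The targeted gene Tkt had 52.5, 44.8 and 31.9 reads scaled to library size as CPM in the cKO libraries and 126, 97.1 and 121 CPM in the WT libraries, with no overlap (log2 fold change -1.41 ± 0.19, SE; adjusted p = 0.0516 by edgeR's quasi-likelihood test). Tkt RNA was therefore lower and still present in cKO libraries, and reads over the deleted exons were not measured apart. Tkt narrowly missed the threshold in this fit, and the call depended on the processing. Under the alternatives described below, its log2 fold change ran from -1.68 to -1.24. Its adjusted p was under 0.05 in 7 of them and reached 0.217 at the highest. The defining Treg markers were present in both groups. Foxp3 had 676, 559 and 627 CPM in cKO libraries, against 651, 458 and 686 CPM in WT libraries, and Il2ra, which encodes CD25, had 664, 775 and 833 CPM in cKO libraries, against 824, 628 and 812 CPM in WT libraries. Over the 12887 genes tested, the median log2 fold change was 0.004.

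Killer cell lectin-like receptors are membrane proteins with an extracellular domain folded like a C-type lectin. They are best known from natural killer (NK) cells, where inhibitory members carry a tyrosine motif that recruits phosphatases and activating members reach kinases through adaptor proteins or the kinase Lck. KLRG1 is an inhibitory receptor that binds cadherins on other cells. It is found on mature NK cells, terminally differentiated effector CD8 T cells, group 2 innate lymphoid cells (ILC2), and a differentiated effector subset of Treg cells.

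The starts of the coding sequences show how the receptors differ in the part that signals inside the cell. The 120 bases printed for each come from GENCODE M21 transcripts (GRCm38) and run 5′ to 3′ on the strand of the gene. In Klrg1, on the minus strand at chr6:122279706-122282811, the capitals mark the codons of an inhibitory tyrosine motif, codons 5 to 10. In Klrb1f, on the plus strand at chr6:129045948-129052493, they mark the codons of a CxCP motif, codons 31 to 34, a motif known in this family for binding Lck. Klrb1c, on the minus strand at chr6:128785989-128788481, is printed from codon 49 of the annotated frame, the ATG that aligns with the start of Klrb1f. Its capitals mark a match to the tyrosine motif, codons 5 to 10 counted from the printed start, and a CxCP motif, codons 31 to 34. Each span on the genome crosses an intron.
Klrg1: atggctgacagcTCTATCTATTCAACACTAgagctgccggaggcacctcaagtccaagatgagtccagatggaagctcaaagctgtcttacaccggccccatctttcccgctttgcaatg
Klrb1f: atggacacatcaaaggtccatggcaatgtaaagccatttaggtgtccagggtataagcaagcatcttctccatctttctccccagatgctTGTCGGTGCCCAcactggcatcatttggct
Klrb1c: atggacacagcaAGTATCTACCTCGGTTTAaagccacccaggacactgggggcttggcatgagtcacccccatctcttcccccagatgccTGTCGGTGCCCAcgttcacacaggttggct

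Klrg2 had neither motif in its first 50 codons. Among 21558 protein-coding genes of the same annotation, the first 50 codons held a match to the inhibitory tyrosine motif in 6.13% and to the CxCP motif in 0.302%. Those searches began at the first annotated codon of each gene. Klrb1c was searched from codon 49, so its matches are not on the same footing as these shares. A match describes the letters and is not a proven site. Klrb1f and Klrb1c, which both belong to the NKR-P1 group, were 70.7% identical over 639 aligned coding bases. Klrg1 was 55.3% to 59.0% identical to the other receptors. Its transcript was 54.5% identical to that of Gm6637, which is not a receptor gene, so values of this size do not by themselves show family likeness.

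Gm6637 is not a receptor gene. RefSeq lists it as a transcribed pseudogene, and GENCODE as a processed pseudogene of 382 bases on the plus strand. Over those 382 bases it was 96.1% identical to the transcript of Snu13, a gene on chromosome 15 for a protein of the U4 small nuclear ribonucleoprotein of the spliceosome, with 15 mismatches. Against Klrg1 it was 54.5% identical. The first 119 aligned bases of the pair are printed to show the likeness, with the 5 differing positions in capitals. Gm6637 is read on the plus strand at chr6:122295664-122295782 and Snu13 on the minus strand at chr15:82043901-82047488, in GRCm38.
Gm6637: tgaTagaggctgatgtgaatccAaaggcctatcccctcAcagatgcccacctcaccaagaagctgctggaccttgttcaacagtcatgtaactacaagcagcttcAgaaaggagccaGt
Snu13: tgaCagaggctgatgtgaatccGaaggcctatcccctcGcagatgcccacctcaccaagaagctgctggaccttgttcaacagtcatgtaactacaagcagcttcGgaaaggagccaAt

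Klrg1 was much lower in cKO Treg cells. Klrg1 (Entrez 50928, chr6:122270596-122282833, minus strand) had 13, 9 and 2 estimated reads in the cKO libraries and 118, 130 and 116 in the WT libraries. Every cKO library lay far below every WT library, and the 2 reads of the third cKO library carry an exact 95% Poisson interval of 0.242 to 7.22 reads, for counting error only. Scaled for depth, Klrg1 averaged 0.453 ± 0.324 CPM in cKO libraries and 6.95 ± 0.713 CPM in WT libraries (SD, n = 3 each), which is 15.4-fold lower. The fitted log2 fold change was -3.93 ± 0.47 (SE), the lowest of all genes tested. Klrg1 was chosen with this difference known, so its rank is a description and nothing is read from it. In FPKM, the authors' measure of fragments scaled for gene length as well as depth, Klrg1 had 0.54, 0.37 and 0.08 in cKO libraries, against 4.93, 5.60 and 4.88 in WT libraries. Among the tested genes of a library ranked by FPKM, it stood at percentiles 11.4, 7.81 and 1.15 in cKO libraries, against 36.1, 39.4 and 36.2 in WT libraries. The WT libraries differed little from each other, and the cKO libraries spread over a range of several fold. In bulk RNA, fewer Klrg1-expressing cells and less Klrg1 RNA per cell cannot be told apart.

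Gm6637 (Entrez 625931, RefSeq span chr6:122294106-122296950) was lower in cKO cells in a similar way. It had 8.06, 21.21 and 15.08 estimated reads in cKO libraries, against 108.42, 96.15 and 95.64 in WT libraries, again with no overlap. Its mean was 0.815 ± 0.340 CPM in cKO libraries and 5.71 ± 0.292 CPM in WT libraries (SD, n = 3 each), 7.01-fold lower. The log2 fold change was -2.79 ± 0.31, the lowest but 1 of all genes tested, a rank that is likewise only a description. In FPKM it had 0.37, 0.95 and 0.71 in cKO libraries, against 5.02, 4.74 and 4.46 in WT libraries. The cKO libraries did not stand in the same order for the neighbouring pair of genes. Klrg1 was highest in the first cKO library and lowest in the third, whereas Gm6637 was lowest in the first and highest in the second. The 95% Poisson intervals of the rounded reads were 6.92 to 22.2, 4.12 to 17.1 and 0.242 to 7.22 for Klrg1. For Gm6637 they were 3.45 to 15.8, 13.0 to 32.1 and 8.40 to 24.7. The intervals overlapped within each gene, so the order of the cKO libraries is uncertain from counting error alone. The FPKM of Gm6637 divided by that of Klrg1 was 0.685, 2.57 and 8.88 in cKO libraries and 1.02, 0.846 and 0.914 in WT libraries. The levels per length were thus near equal in WT libraries and unequal in cKO libraries, where the ratios rest on few reads.

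The reads of Gm6637 are less certain than those of Klrg1. The estimated reads of Klrg1 were whole numbers, to within 0.01, in 6 of 6 libraries, and those of Gm6637 in 0 of 6. Gm6637 can share reads with Snu13 and with other copies of it, so its value depends on how such reads were divided. Snu13 itself had 42.8, 47.5 and 47.6 CPM in cKO libraries, against 51.9, 48.4 and 47.7 CPM in WT libraries (log2 fold change -0.10 ± 0.08, adjusted p = 0.876 by edgeR), well above Gm6637 in each library. The ratio of reads to FPKM implies a length of 1.22 kb for Gm6637 in the authors' annotation, longer than the 382 bases in GENCODE. The sources used here do not say whether reads were counted by strand.

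The NKR-P1 pair showed smaller differences. Klrb1f (Entrez 232408, chr6:129045837-129059724, plus strand) encodes an NKR-P1 receptor that binds Clec2 family proteins. It had 51.26, 71 and 57.02 estimated reads in cKO libraries, against 95.6, 81.31 and 89 in WT libraries. The groups did not overlap, and the gap between the highest cKO and the lowest WT library was narrow. The means were 3.34 ± 0.474 CPM in cKO libraries and 5.06 ± 0.244 CPM in WT libraries (SD, n = 3 each), with a log2 fold change of -0.60 ± 0.18 (SE). In FPKM, Klrb1f had 1.11, 1.54 and 1.23 in cKO libraries, against 1.85, 1.97 and 1.94 in WT libraries.

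Klrb1c (Entrez 17059, chr6:128778485-128788641, minus strand) encodes the NK1.1 antigen, an activating receptor used in C57BL/6 mice to mark NK and NKT cells. It had 13, 28.69 and 17 estimated reads in cKO libraries, against 38, 24.65 and 25 in WT libraries, so the groups overlapped. The means were 1.09 ± 0.432 CPM in cKO libraries and 1.67 ± 0.381 CPM in WT libraries (SD, n = 3 each), with a log2 fold change of -0.60 ± 0.36. Klrb1f and Klrb1c thus had the same point estimate, with an SE for Klrb1c that was wider than that for Klrb1f. Per length, Klrb1f stood above Klrb1c in each of the 6 libraries, with FPKM ratios of 3.96, 2.57 and 3.32 in cKO libraries and 2.28, 3.58 and 3.59 in WT libraries.

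Klrg2 (Entrez 74253, chr6:38616329-38638815, minus strand) was sparse in both groups. It had 23, 7 and 12.65 estimated reads in cKO libraries, against 17.98, 14.99 and 3 in WT libraries. The means were 0.814 ± 0.484 CPM in cKO libraries and 0.688 ± 0.452 CPM in WT libraries (SD, n = 3 each). The log2 fold change was 0.24 ± 0.68, and it turned to -0.31 without the first cKO library and to -0.22 without the third WT library. A difference was not detectable at this depth.

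**Figure D1:**
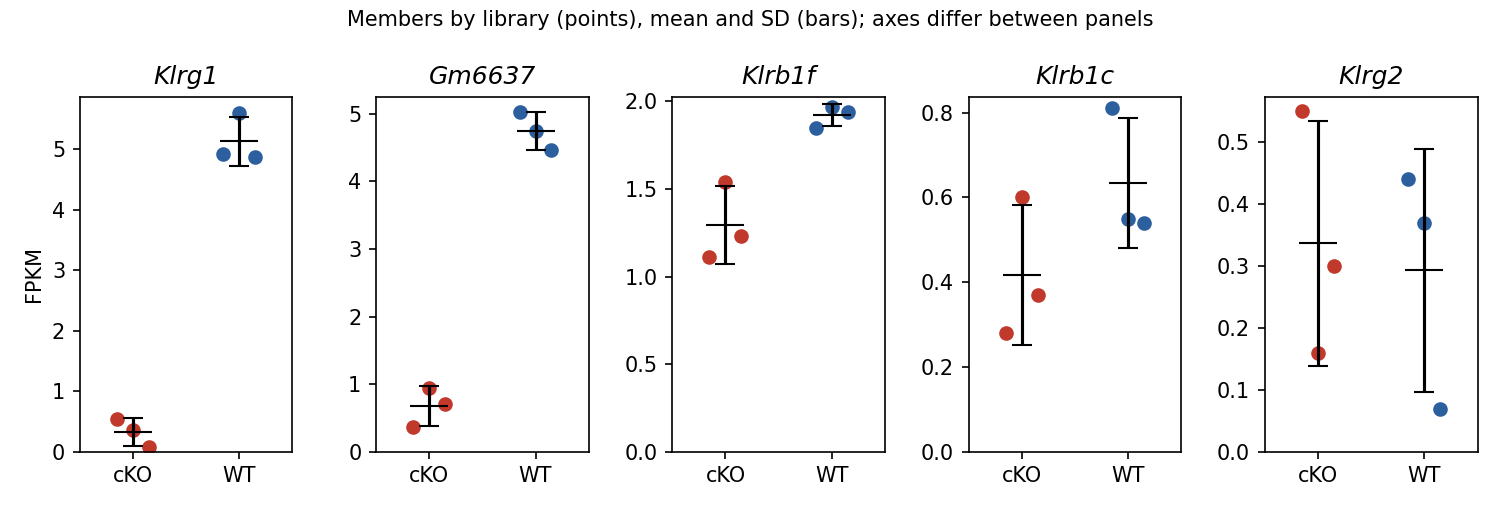
FPKM (vertical axis, a separate scale for each gene) of the 5 members in the 3 cKO libraries and the 3 WT libraries, with points for libraries, a long line for the mean and error bars of 1 SD. The points of Klrg1 lie at 0.08 to 0.54 in cKO libraries and at 4.88 to 5.60 in WT libraries, while those of Klrb1c and Klrg2 overlap between the groups.

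The 4 receptors changed places between the groups. In every cKO library Klrb1f had the highest FPKM of the 5 members, and in every WT library Klrg1 had the highest FPKM of the 4 receptors. The FPKM of Klrb1f divided by that of Klrg1 was 2.06, 4.16 and 15.4 in cKO libraries and 0.375, 0.352 and 0.398 in WT libraries. In cKO libraries the mean FPKM of Klrg1, Klrb1c and Klrg2 were 0.33 ± 0.233, 0.417 ± 0.165 and 0.337 ± 0.198 (SD, n = 3), which lie within one another's spread, below Klrb1f at 1.29 ± 0.222. In WT libraries the order was Klrg1 at 5.14 ± 0.402 FPKM, Klrb1f at 1.92 ± 0.0625, Klrb1c at 0.633 ± 0.153 and Klrg2 at 0.293 ± 0.197 (SD, n = 3), with no overlap between neighbours in that order.

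Of the 5 members, 3 had groups that did not overlap (Klrg1, Gm6637 and Klrb1f), each lower in cKO cells, against 8.12% of all genes tested that were lower without overlap and 6.1% that were higher. This count follows from how the members were chosen, and nothing is read from it. Over the 6 libraries, Pearson's r with Klrg1 on the log2 CPM scale was 0.90 for Gm6637, 0.89 for Klrb1f, 0.63 for Klrb1c and -0.13 for Klrg2. These values describe 6 points that fall into 2 groups.

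The rest of the family had very few reads in both groups, and the 4 receptors accounted for most of its reads. Of 23 other killer cell lectin-like receptor genes looked up, 17 were in the table, and 0 of them had enough reads to be tested. None of the 17 exceeded 7.07 estimated reads in a cKO library or 6 in a WT library. The highest FPKM among them was 0.39 in cKO libraries and 0.28 in WT libraries, and in each library the gene with the highest FPKM was Klrd1, which encodes CD94, the partner of the NKG2 receptors. The number listed at 0 was 7, 11 and 8 in cKO libraries and 11, 6 and 14 in WT libraries. Summed over the 17 genes there were 29.1, 25.4 and 16.5 reads in cKO libraries and 11.6, 33.9 and 4.96 in WT libraries, with no separation of the groups. The 4 receptors together had 100.26, 115.69 and 88.67 reads in cKO libraries and 269.58, 250.95 and 233 in WT libraries. Klrg1 made up 10.1%, 6.38% and 1.90% of all reads on the 21 receptor genes in cKO libraries and 42.0%, 45.6% and 48.7% in WT libraries.

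**Figure D2:**
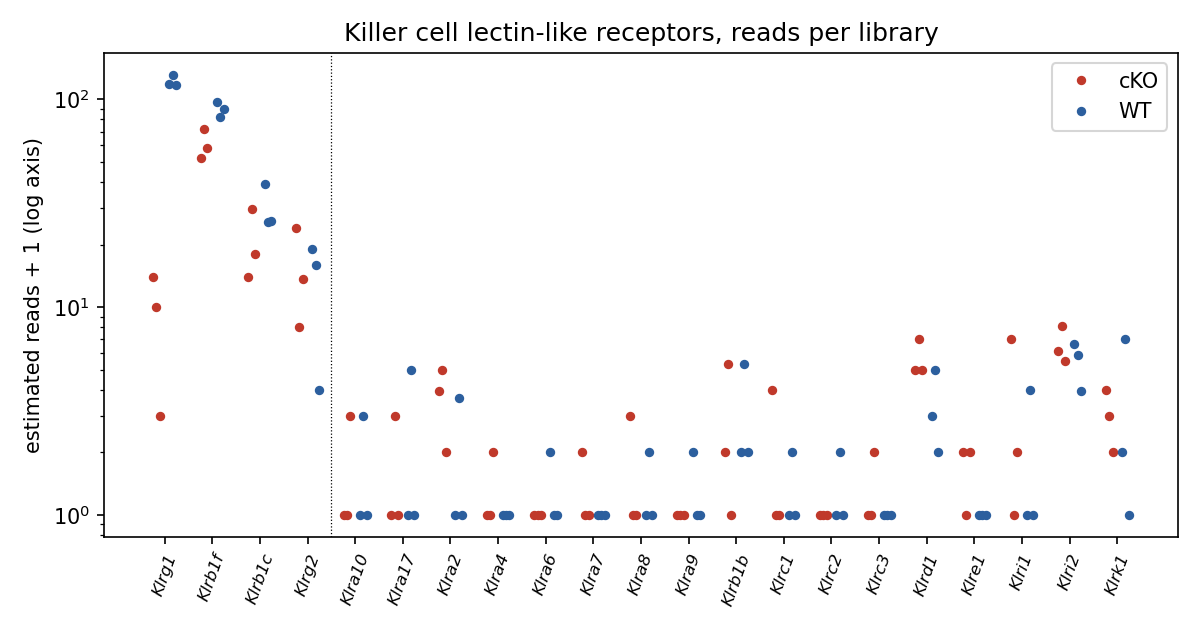
Estimated reads plus 1 (vertical axis, log scale) of each killer cell lectin-like receptor gene in the 3 cKO and the 3 WT libraries, 1 point per library, with the 4 receptors among the members left of the dotted line and the other 17 genes right of it. Klrg1 has 2 to 13 reads in cKO libraries and 116 to 130 in WT libraries, and no gene right of the line exceeds 7.07 reads in cKO libraries or 6 in WT libraries.

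The genes around Klrg1 and Gm6637 had far smaller differences. Gm6637 lies 11.3 kb beyond the right-hand coordinate of Klrg1 in RefSeq, and the pair lies on opposite strands in GENCODE. Because Klrg1 is on the minus strand, that coordinate is its 5′ end, so Gm6637 lies upstream of Klrg1. Within 500 kb of Klrg1, 5 genes besides Gm6637 were tested, and their log2 fold changes ran from -0.15 to 0.39. The next gene, M6pr for the cation-dependent mannose 6-phosphate receptor, lies 11.8 kb beyond Gm6637. It had 150, 151 and 157 CPM in cKO libraries, against 175, 164 and 170 CPM in WT libraries. Its groups did not overlap, but the size was small (log2 fold change -0.15 ± 0.07, adjusted p = 0.669 by edgeR). No neighbour of Klrg1 or Gm6637 was called by edgeR, DESeq2 or limma-voom, and 0 had an unadjusted p under 0.05.

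**Figure D3:**
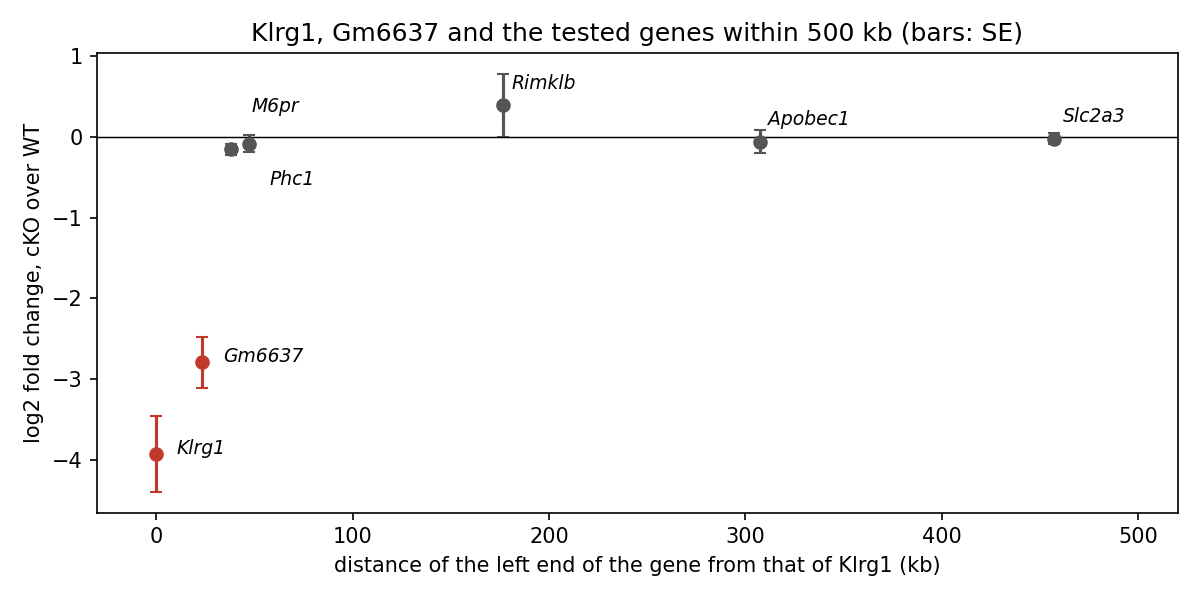
Log2 fold change (cKO over WT, vertical axis) of the genes tested around Klrg1, against the distance of the left end of each gene from that of Klrg1 in kb (horizontal axis), with error bars of 1 SE. Klrg1 at -3.93 and Gm6637 at -2.79 stand apart from their neighbours, which lie between -0.15 and 0.39.

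Klrb1f and Klrb1c lie among other genes for C-type lectin-like proteins, some of which are ligands of NKR-P1 receptors. Around Klrb1f 8 neighbours were tested, with log2 fold changes of -0.45 to 1.41, and around Klrb1c 10, with -0.45 to 0.18. Around Klrg2 there were 7, at -0.25 to 0.24, with Luc7l2, a splicing factor gene, at -0.25 ± 0.10 and Hipk2, a kinase gene, at 0.06 ± 0.15. None of these neighbours was called by edgeR, DESeq2 or limma-voom, and 1 gene around each of Klrb1f, Klrb1c and Klrg2 had an unadjusted p under 0.05.

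The ligands were measured in the same Treg cells, although ligands for these receptors are mostly displayed by other cells. Of 16 ligand and Clec2 family genes looked up, 11 were tested. None was called by edgeR, DESeq2 or limma-voom, 1 had an unadjusted p under 0.05, and the median log2 fold change was -0.003. Clec2i, whose product is a ligand of the Klrb1f receptor, had 55.1, 53.0 and 60.5 CPM in cKO libraries, against 52.1, 58.9 and 52.9 CPM in WT libraries (log2 fold change 0.04 ± 0.09, adjusted p = 0.976 by edgeR). The groups of Clec2i overlapped. Clec2d, the ligand gene of the inhibitory NKR-P1 receptor, ranged widely within both groups, at 43.6, 75.3 and 109 CPM in cKO libraries and 96.9, 38.9 and 93.3 CPM in WT libraries (log2 fold change -0.01 ± 0.41). The flanking genes Clec2g and Clec2h were low, at mean levels of 0.522 and 1.14 CPM in cKO libraries, against 0.630 and 1.34 CPM in WT libraries. Cd69, a Clec2 relative known as an early activation antigen, had 219, 247 and 201 CPM in cKO libraries, against 257, 385 and 265 CPM in WT libraries. It did not overlap between groups but missed the threshold (log2 fold change -0.45 ± 0.17, adjusted p = 0.568 by edgeR). Of the cadherins that KLRG1 binds, named here for that role and after their values were seen, Cdh1 and Cdh4 had too few reads to be tested. Cdh2 had 0.698, 0.818 and 0.724 CPM in cKO libraries, against 0.943, 0.538 and 1.18 CPM in WT libraries.

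Reads for the signalling machinery that these receptors use were present in both groups, though sparse for some adaptor genes. All 19 partner genes looked up were tested. None was called by edgeR, DESeq2 or limma-voom, 2 had an unadjusted p under 0.05, and the median log2 fold change was 0.05. The lowest p belonged to Sh2d1a, the gene for the adaptor SAP of SLAM family receptors. It had 27.9, 30.0 and 27.5 CPM in cKO libraries, against 40.2, 34.5 and 38.9 CPM in WT libraries, without overlap (log2 fold change -0.41 ± 0.09, adjusted p = 0.177 by edgeR). The other gene with an unadjusted p under 0.05 was Syk, the kinase of activating receptors, named after its values were seen. It had 10.1, 7.63 and 5.24 CPM in cKO libraries, against 4.21, 4.84 and 3.89 CPM in WT libraries, without overlap and in the opposite direction (log2 fold change 0.82 ± 0.26, adjusted p = 0.431 by edgeR). Of the 19 partners, 1 was lower without overlap and 3 were higher, against 8.12% and 6.1% of all genes tested. Named for their role and after their values were seen, the genes for the phosphatases of the tyrosine motif had log2 fold changes of 0.08 (Inpp5d, SHIP-1) and -0.08 (Ptpn11, SHP-2). Lck, the kinase that the CxCP motif binds, had a log2 fold change of 0.05. All 3 had overlapping groups. The adaptor genes Tyrobp and Fcer1g, named after their values were seen, were low and varied within both groups, which overlapped. Tyrobp had 1.74, 4.03 and 0.613 CPM in cKO libraries, against 0.388, 1.79 and 0.788 CPM in WT libraries. Fcer1g had 1.86, 5.56 and 0.334 CPM in cKO libraries, against 0.610, 1.73 and 1.46 CPM in WT libraries. Hcst, another adaptor gene, averaged 21.0 CPM in cKO libraries and 22.1 CPM in WT libraries.

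Genes known from Klrg1+ effector Treg cells were lower in cKO cells, as Klrg1 was. All 36 genes of this list were tested, 7 fell and 0 rose by edgeR's quasi-likelihood test with Benjamini-Hochberg adjustment, and all 36 had a negative log2 fold change, against 48.6% of all genes tested. Over all genes tested, 0.21% were called, with 0.202% lower and 0.00776% higher. The median was -0.81, against 0.004 over all genes tested. The groups did not overlap in 26 of the 36 (72.2%), each lower in cKO cells, against 8.12% of all genes tested. An unadjusted p under 0.05 was found for 26 of the 36, against 7.69% of all genes tested (991 genes). DESeq2 called 22 of the 36 and limma-voom 7. The list was written with earlier results of these data known, so its direction is not independent evidence. The count of 7 became 0 when any one of the 3 cKO libraries, the first WT library or the third WT library was left out, and 10 without the second WT library.

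Among the genes that fell were receptors, an integrin chain and a transcription factor. Tigit, an inhibitory receptor of activated Treg cells, had 16.8, 21.0 and 19.1 CPM in cKO libraries, against 48.4, 45.5 and 43.0 CPM in WT libraries (log2 fold change -1.26 ± 0.10, adjusted p = 0.0269 by edgeR). Ccr2, a chemokine receptor for entry into inflamed tissue, had 13.1, 13.8 and 13.2 CPM in cKO libraries, against 33.4, 28.2 and 31.6 CPM in WT libraries (log2 fold change -1.21 ± 0.09, adjusted p = 0.0269). Both were nearly level within each group, with a wide gap between groups. Itgb1, the integrin beta-1 chain, had 139, 155 and 145 CPM in cKO libraries, against 261, 285 and 238 CPM in WT libraries (log2 fold change -0.83 ± 0.09, adjusted p = 0.0449). Tox2, an HMG-box transcription factor, had 10.99, 12.6 and 9.36 CPM in cKO libraries, against 29.0, 22.6 and 28.5 CPM in WT libraries (log2 fold change -1.28 ± 0.15, adjusted p = 0.0449). The other 3 genes that fell were Icos (-0.81), S100a4 (-1.58) and S100a11 (-1.08), given as log2 fold changes. The 7 values were all nearer to 0 than that of Klrg1. Summed over the list, the level was 2778, 2587 and 2207 CPM in cKO libraries and 3550, 4379 and 3353 CPM in WT libraries. Without Ctla4, the highest gene of the list, the sums were 1801, 1848 and 1715 CPM in cKO libraries and 2742, 2652 and 2600 CPM in WT libraries. With or without Ctla4, the sum was lower in cKO cells without overlap, as Klrg1 was. Within the WT group, Klrg1 and the sum with Ctla4 were highest in the second library, and the sum without Ctla4 was not. The part of these genes in the lower Klrg1 level was not tested.

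**Figure D4:**
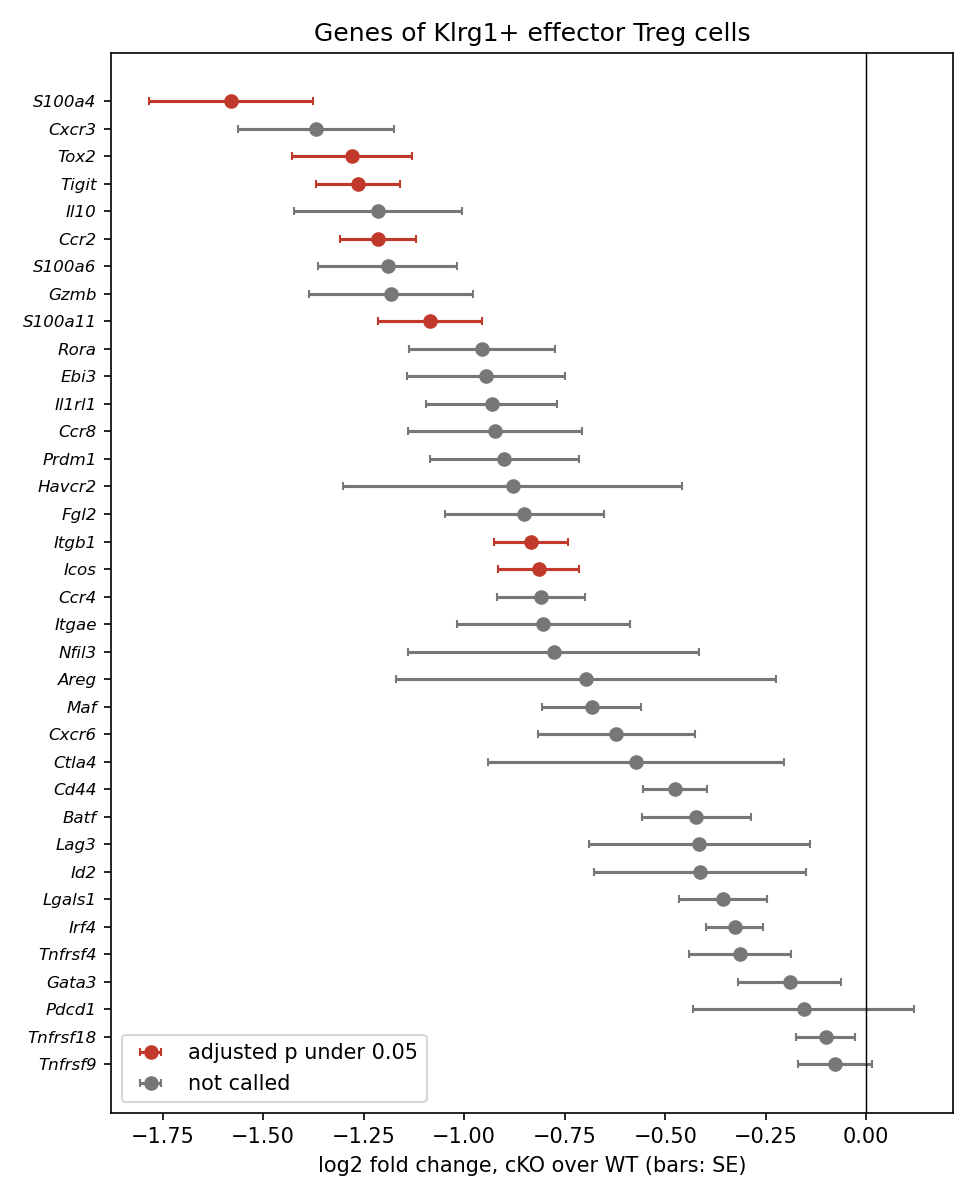
Log2 fold change (cKO over WT, horizontal axis) of the 36 genes of Klrg1+ effector Treg cells, sorted by value, with error bars of 1 SE and the genes called at an adjusted p under 0.05 in red. All 36 lie below 0, with a median of -0.81, and the 7 called genes run from -1.58 (S100a4) to -0.81 (Icos).

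Across all libraries, S100a4 had the pattern most like Klrg1. Among 12259 genes with a mean of at least 1 CPM in a group, Pearson's r with Klrg1 over 6 libraries was above 0.95 for 72 genes. Klrg1 was chosen with its difference between the groups known, and r was taken over the same cKO and WT libraries. A gene with a high r therefore tends to differ between the groups, so the adjusted p given here are not independent evidence. S100a4, a calcium-binding protein of motile and activated cells, reached 0.999, with 6.86, 6.05 and 3.95 CPM in cKO libraries and 16.2, 18.4 and 15.8 CPM in WT libraries (log2 fold change -1.58 ± 0.20, adjusted p = 0.0474 by edgeR). Nav2, a neuron navigator gene, followed at 0.995, with 29.8, 25.2 and 21.0 CPM in cKO libraries and 54.8, 62.4 and 54.9 CPM in WT libraries (log2 fold change -1.18 ± 0.13, adjusted p = 0.0449). Klrg1, S100a4 and Nav2 were each highest in the second WT library and lowest in the third cKO library. Among the genes next nearest to Klrg1 were Crybg2, Colq, Orc2, Runx2, Mmd, Tspan3 and Itga7, with r of 0.985 to 0.992. Their log2 fold changes ran from -0.85 (Colq) to -0.07 (Orc2), so a high r went with a large difference in some and a very small one in others. Within the cKO group, the third library had the least Klrg1 and also the least Tkt. The WT group went the other way. Its second library had the most Klrg1, at 7.77 CPM, and the least Tkt, at 97.1 CPM. A relation between the levels of Tkt and Klrg1 was not tested.

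Other lectin-like receptors had mostly positive log2 fold changes, and none passed the test. Of 26 genes for C-type lectin-like proteins outside the killer receptor family, 25 were in the table and 10 were tested. None was called by edgeR, DESeq2 or limma-voom, and 3 had an unadjusted p under 0.05. The median log2 fold change was 0.46, and 1 of the 10 was negative, against 48.6% of all genes tested. Several of the 10 are known from B or myeloid cells, among them Fcer2a, Cd72, Clec7a and Clec12a, named after their values were seen. Markers of B cells and of myeloid cells had medians on the same side, at 0.94 and 0.25, and their part in these values was not tested. Cd72, an inhibitory lectin-like receptor best known from B cells, had 22.2, 24.2 and 21.4 CPM in cKO libraries, against 16.0, 18.4 and 19.1 CPM in WT libraries, without overlap (log2 fold change 0.34 ± 0.10, adjusted p = 0.388 by edgeR).

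Klrg1, Klrb1c and Klrb1f are also expressed by other lymphocytes, so markers of those cells were read beside the members. NK cell markers summed to 1281, 1242 and 1295 CPM in cKO libraries and 1294, 1194 and 1347 CPM in WT libraries, nearly all of it Il2rb, which Treg cells express too. Without Il2rb the sums were 34.8, 50.9 and 36.8 CPM in cKO libraries and 58.7, 46.8 and 49.8 CPM in WT libraries, so the groups overlapped. Of the 11 NK markers tested 0 were called by edgeR, DESeq2 or limma-voom, 3 had an unadjusted p under 0.05, and the median log2 fold change was -0.23. The groups did not overlap in 4 of the 11 (36.4%), each lower in cKO cells, against 8.12% of all genes tested. Ncr1, the receptor NKp46 that defines NK cells, was at 0.116, 0 and 0 CPM in cKO libraries and at 0 in all 3 WT libraries, and Gzma reached at most 0.349 CPM in cKO libraries and 0.225 CPM in WT libraries. Other NK markers were not near 0. Named after their values were seen, Eomes had 2.99 to 5.07 CPM, Tbx21 3.02 to 6.82 CPM and Prf1 2.38 to 4.58 CPM over the 6 libraries, each with overlapping groups. Ccl5 and Ccl3, chemokine genes of activated lymphocytes, had log2 fold changes of -0.75 ± 0.30 and -0.84 ± 0.36, without overlap (adjusted p = 0.597 and 0.643 by edgeR). Nkg7, a granule membrane protein of cytotoxic cells, had 9.83, 14.1 and 11.2 CPM in cKO libraries, against 21.4, 15.5 and 18.6 CPM in WT libraries (log2 fold change -0.66 ± 0.17, adjusted p = 0.304 by edgeR). The part of NK cells in the Klrg1 and Klrb1c values was not tested.

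The 4 markers of CD8 T cells summed to 75.1, 82.7 and 97.9 CPM in cKO libraries and 72.5, 66.6 and 73.4 CPM in WT libraries, opposite in direction to Klrg1. None was called by edgeR, DESeq2 or limma-voom, 0 had an unadjusted p under 0.05, and the median log2 fold change was 0.25. Most of the sum was Ctsw, the gene for cathepsin W. It had 53.5, 59.8 and 76.0 CPM in cKO libraries, against 56.7, 46.5 and 54.0 CPM in WT libraries. Its log2 fold change was 0.27 ± 0.14 (adjusted p = 0.781 by edgeR). The genes for the CD8 chains, named after their values were seen, were present in both groups. Cd8b1 had 14.4, 17.8 and 17.3 CPM in cKO libraries, against 12.7, 14.4 and 15.1 CPM in WT libraries. Cd8a averaged 4.10 CPM in cKO libraries and 2.79 CPM in WT libraries. Their log2 fold changes were 0.23 ± 0.12 and 0.55 ± 0.31, with overlapping groups. The part of CD8 T cells in the Klrg1 values was not tested. The ILC2 markers summed to 30.3, 28.0 and 22.6 CPM in cKO libraries and 25.4, 32.4 and 27.9 CPM in WT libraries, most of it the chemokine receptor gene Ccr9 (log2 fold change 0.03 ± 0.13). Without Ccr9 the sums were 3.49, 3.22 and 1.67 CPM in cKO libraries and 4.94, 5.80 and 3.83 CPM in WT libraries, lower in cKO cells without overlap. Of the 3 tested, none was called by any of the 3 tools and 1 had an unadjusted p under 0.05. That gene was Il17rb, the IL-25 receptor chain, at 1.22, 1.14 and 0.501 CPM in cKO libraries, against 2.66, 4.19 and 2.31 CPM in WT libraries (log2 fold change -1.67 ± 0.40, adjusted p = 0.250 by edgeR). Il5 and Il13, the defining ILC2 cytokine genes, were at or near 0, with at most 0.116 CPM in a cKO library and 0.120 CPM in a WT library. The part of ILC2 in the Klrg1 values was not tested.

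Markers of gamma delta T and NKT cells summed to 7.56, 9.65 and 9.36 CPM in cKO libraries and 12.8, 17.6 and 15.1 CPM in WT libraries, lower in cKO cells without overlap. Of the 4 tested, 1 fell by edgeR, 1 by DESeq2 and 0 by limma-voom, and the median log2 fold change was -0.32. The gene that fell was 5830411N06Rik, a scavenger receptor gene also called Scart2, at 1.45, 2.07 and 1.34 CPM in cKO libraries, against 5.43, 7.29 and 8.50 CPM in WT libraries (log2 fold change -2.12 ± 0.26, adjusted p = 0.0449 by edgeR). That call was lost when any 1 of the 6 libraries was left out. The gene carried most of the difference, for without it the sums were 6.11, 7.58 and 8.02 CPM in cKO libraries and 7.38, 10.3 and 6.59 CPM in WT libraries, with overlap. Blk, named after its values were seen, had a log2 fold change of 0.55 ± 0.42, in the other direction. Trdc, Tcrg-C1 and Tcrg-C2, the receptor genes that define gamma delta T cells, were not analysed here. Zbtb16, the NKT regulator PLZF, had a log2 fold change of -0.21 ± 0.27 and turned to 0.08 without the second WT library. The part of these cells in the lower Klrg1 and Klrb1c values was not tested.

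B cell markers summed to 41.8, 24.9 and 18.8 CPM in cKO libraries and 24.4, 23.2 and 24.9 CPM in WT libraries, and myeloid markers to 111, 152 and 77.6 CPM in cKO libraries and 72.0, 112 and 73.3 CPM in WT libraries. In both lists the groups overlapped. Of the 6 B cell and 11 myeloid markers tested, none was called by edgeR, DESeq2 or limma-voom, 3 and 1 had an unadjusted p under 0.05, and the median log2 fold changes were 0.94 and 0.25. Bank1, a B cell scaffold protein gene, had 2.33, 2.89 and 3.68 CPM in cKO libraries, against 1.44, 1.56 and 1.69 CPM in WT libraries, without overlap (log2 fold change 0.92 ± 0.25, adjusted p = 0.336 by edgeR). Cd79b, the highest of the B cell markers, had a log2 fold change of -0.19 ± 0.18. Csf1r, the receptor of macrophage growth factor, had 9.07, 22.0 and 2.39 CPM in cKO libraries, against 1.66, 4.25 and 1.46 CPM in WT libraries, with overlap (log2 fold change 2.19 ± 0.78, adjusted p = 0.527 by edgeR). Cst3, the highest of the myeloid markers, had a log2 fold change of 0.05 ± 0.09. The 7 Treg and CD4 T cell markers had a median of -0.04, with none called by the same tools and 1 at an unadjusted p under 0.05. That gene was Ikzf2, the Treg transcription factor Helios, at 608, 537 and 599 CPM in cKO libraries, against 670, 714 and 626 CPM in WT libraries (log2 fold change -0.21 ± 0.09, adjusted p = 0.642 by edgeR).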

How the data were processed

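The authors deposited 1 table with 6 libraries and 18493 genes, holding estimated counts per gene that are not normalized and FPKM values that the authors scaled for gene length and depth, a unit inferred here from the numbers and gene lengths. Group means in the same table were not used. In each library 45.4% to 46.3% of the estimated counts were not whole to within 0.01; the sources used here do not say how such fractions came about. The submitters' processing notes list, without saying what each was used for, the build mm10 and the tools featureCounts 1.5.0-p3, HISAT2 2.0.5 and DESeq2 1.16.1.

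Groups were taken from the sample labels. Estimated counts were rounded and fitted across all genes with edgeR 4.0.16 in R 4.3.3 (TMM scaling, filterByExpr with a minimum count of 10, quasi-likelihood test, group as the only term), which left 12887 genes. Benjamini-Hochberg adjustment ran over all of these, and genes were called at an adjusted p under 0.05. The common biological coefficient of variation was 16.7%. CPM are TMM-scaled. Alternatives used DESeq2 1.42.0, limma-voom (limma 3.58.1), other scalings and filters, a replicate block, and libraries left out. The fitting procedure was tested on simulated data.

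The members and the 12 gene lists were chosen with earlier results of these data known. Beside the members, each list gave the called genes with the lowest p (up to 4) or, with none called, the gene with the lowest p, and lists of other cell types also their highest gene; the nearest tested neighbours and the 10 genes most like Klrg1 (log2 CPM, prior count 2) were added, and Tkt. Of the genes most like Klrg1, 1 is not reported here. Coordinates are from RefSeq GRCm38.p6 and GENCODE M21, the same build as mm10, counted from 1. With 3 libraries a group, the smallest two-sided exact permutation p for a single gene is 0.1.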

Additional observations from a re-analysis of the deposited data

How the results depend on the processing

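Over 16 alternatives, Klrg1, Gm6637, Klrb1f and Klrb1c stayed lower in cKO cells. Leaving out 1 library gave log2 fold changes of -4.49 to -3.47 for Klrg1, -3.12 to -2.52 for Gm6637, -0.72 to -0.52 for Klrb1f and -0.97 to -0.40 for Klrb1c. Klrg2 ran from -0.31 to 0.61 and had no value under the stricter filter. The 27 genes called became 171 by DESeq2, 43 with no filter, 48 with robust estimation and 0 to 30 with 1 library left out. The 7 effector Treg genes became 22 by DESeq2 and 0 to 10 with 1 library left out. The single gamma delta T and NKT marker became 0 by limma-voom and 0 to 0 with 1 library left out. With the replicate number as a block, 0 genes, 0 effector genes and 0 such markers were called. To look for pairing, the group mean of each gene was subtracted from its log2 CPM, and the deviations that remained were correlated. The deviations of same-numbered libraries correlated at -0.28, 0.06 and 0.26, and those of libraries of different number at -0.38 to 0.31. With 3 libraries a group, these values cannot decide whether the numbers pair the libraries. Without the second WT and first cKO libraries, a setting chosen after seeing the data, 71 genes, 13 effector genes and 0 such markers were called, and Klrg2 was -0.082, Hipk2 -0.16, Il2rb -0.048 and Zbtb16 0.22. Genes that were never called changed sign with 1 library left out: Ccr9 (-0.066 to 0.12), Clec2d (-0.36 to 0.27), Clec2i (-0.015 to 0.098), Cst3 (-0.028 to 0.095), Hipk2 (-0.058 to 0.16), Il2rb (-0.041 to 0.050) and Zbtb16 (-0.38 to 0.082). Clec2d was 0.0079 by limma-voom and 0.016 with the block. The cause of these changes was not tested. Of the remaining lists and the neighbours, 0 genes were called under each alternative. At 2 to 38 reads, Klrg1 in cKO cells, Klrb1c and Klrg2 are limited by depth.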
